A study of Mus musculus with 6 samples.

Results

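The RNA of 10 genes that build or maintain fat cells was followed in mouse fibroblasts before and after acute removal of ASH2L, a subunit that KMT2 (trithorax) enzymes need to methylate lysine 4 of histone H3 (H3K4). The genes were the adipogenic transcription factors Pparg, Cebpa, Cebpb and Cebpd, the fatty acid carriers Fabp4 and Fabp5, the uptake proteins Lpl and Cd36, and the lipid droplet proteins Plin2 and Pnpla2. They were found as the rows with these symbols in the authors' full differential expression table, which gave 10 rows of 55401 genes. The choice was made by gene function, and no measured value entered the rule, but earlier results of these data were known when it was made.

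The cells were immortalised mouse embryo fibroblasts (iMEF), a line that grows without limit and is not an adipocyte line. In all of them the endogenous Ash2l, a floxed allele, had been inactivated, and a lentivirus supplied human ASH2L with an N-terminal FKBP12F36V tag, so the untreated cells carry the deletion and the fusion protein too. The legend of the study's RNA comparison names the clone NG3, which makes the model 1 clone. One group received no dTAG and the other dTAG-13 for 24 h, a PROTAC that bridges the tag to a ubiquitin ligase and thereby sends the fusion protein to the proteasome. No library of cells without the tagged protein but with dTAG-13 is among these samples, so an effect of the compound itself and of the loss of ASH2L cannot be told apart. The sample labels list 3 untreated and 3 treated libraries and the legend speaks of a pair of replicates, whereas the mean counts of weakly expressed genes resolve into whole reads of exactly 5 libraries, and nothing says whether these came from separate cultures, so p-values measure only the spread between libraries.

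Adipogenesis runs as a relay of transcription factors. In the classical scheme, C/EBPβ (Cebpb) and C/EBPδ (Cebpd) are induced early by hormonal signals and switch on Pparg and Cebpa, which then maintain each other and activate the genes of the mature fat cell. Among these targets are Fabp4, which carries fatty acids in the cytoplasm, Lpl, which releases fatty acids from circulating lipoproteins, and Cd36, which takes them up. Plin2 coats lipid droplets in most cell types, and Pnpla2 encodes ATGL, the lipase that starts the breakdown of stored triglyceride. KMT2C and KMT2D, enzymes of the complexes that contain ASH2L, are known coregulators of Pparg and Cebpa in mouse preadipocytes.

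The promoters of the 3 regulators whose behaviour is set side by side below are given first, with their CpG content. CpG-rich promoters are the usual sites of H3K4 trimethylation. After short-term loss of ASH2L, however, the study saw no preference for promoters with a CpG island, a CpG-rich stretch, in the loss of this mark. RefSeq promoters of GRCm38.p6, each reaching from 250 bases before a start site to 50 bases after it, were matched for 6 of the 10 genes, with 8 start sites in all, and the other 4 (Cebpd, Fabp4, Fabp5 and Lpl) had no entry. The sequences run 5′ to 3′ on the plus strand, stop before the start site or, where an annotated exon of the gene begins earlier within the window, before that exon, and carry every CpG in capitals. They cover chr6:115360894-115360950 before the most upstream start of Pparg and chr6:115421816-115422065 before start 3 of the gene. The others are chr7:35119043-35119292 before Cebpa and chr2:167688665-167688914 before Cebpb.
Pparg start 1: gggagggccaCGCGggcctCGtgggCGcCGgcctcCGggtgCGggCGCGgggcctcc
Pparg start 3: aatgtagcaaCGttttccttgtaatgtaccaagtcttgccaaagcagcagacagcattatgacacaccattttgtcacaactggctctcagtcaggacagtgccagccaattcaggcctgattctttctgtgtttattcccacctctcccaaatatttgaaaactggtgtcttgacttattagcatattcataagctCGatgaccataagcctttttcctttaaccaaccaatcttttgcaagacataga
Cebpa: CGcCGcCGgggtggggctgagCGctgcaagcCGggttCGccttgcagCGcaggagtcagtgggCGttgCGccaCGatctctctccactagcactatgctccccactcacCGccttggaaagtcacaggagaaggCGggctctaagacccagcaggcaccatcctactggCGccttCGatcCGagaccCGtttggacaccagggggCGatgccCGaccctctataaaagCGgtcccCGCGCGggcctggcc
Cebpb: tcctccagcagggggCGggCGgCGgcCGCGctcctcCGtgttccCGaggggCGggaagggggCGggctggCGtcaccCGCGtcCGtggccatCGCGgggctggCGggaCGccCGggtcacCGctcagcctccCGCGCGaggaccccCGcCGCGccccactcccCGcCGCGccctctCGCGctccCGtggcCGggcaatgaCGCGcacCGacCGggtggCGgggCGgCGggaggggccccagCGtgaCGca

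Over the whole windows of 300 bases, the Cebpb promoter held 50 CpG and an observed to expected CpG ratio of 1.03, which is higher than in 95.4% of the 32851 promoters of the table. The first Pparg promoter held 44 CpG with a ratio of 0.909, above 88.1% of promoters, and the Cebpa promoter held 29 CpG with a ratio of 0.853, above 83.5%. The promoter at Pparg start 3 held only 2 CpG and had a ratio of 0.170, above 24.1% of promoters, so both kinds of promoter occur in 1 gene. The second Pparg start had a ratio of 0.467, Pnpla2 0.563, Plin2 0.363 and Cd36 0.216, against a median of 0.384 over all promoters. The table of expression values has 1 row per gene and does not separate the starts of Pparg.

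**Figure D1:**
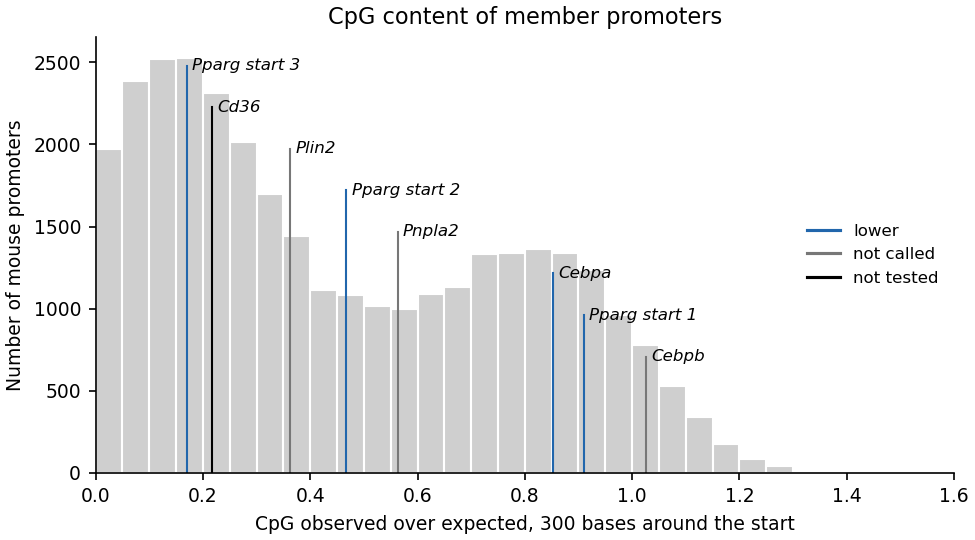
Observed to expected CpG ratio of the 8 matched promoters (marked lines) against the distribution over all 32851 promoters of the table (bars, number of promoters in bins 0.05 wide). The promoters of Cebpb, Cebpa and the first start of Pparg lie in the CpG-rich part, and start 3 of Pparg lies below the median of 0.384.

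Letters that resemble binding sites were searched on both strands of the same windows. The pattern TTNNGNAA, a loose form of the C/EBP site, was present in 40.7% of all promoters and in 2 of the 8 promoters here. The promoter at Pparg start 3 held it at 2 places, as TTTTGCAA from position -16 on the strand of the gene and as TTTGGCAA from position -215 on the other strand, counted from the start site. The only match in Cd36 was TTAGGGAA at position -187. AGGTCA, the core element of PPAR and other nuclear receptors, occurred in 16.3% of all promoters and in 4 of these 8, namely those of Cd36, Plin2 and the first and second start of Pparg. TATAAA occurred in 13.6% of all promoters and here in Cebpa, Cebpb and the second Pparg promoter. The Cebpb promoter held 3 matches to TGACG, the core of cAMP response elements, a pattern found in 20.8% of all promoters, and 5 to the GC box GGGCGG, found in 35.7%. Of 26 matches in the 8 promoters, 0 overlapped a match of another pattern. A match is a description of sequence only.

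Of the 10 genes, 9 passed the authors' filter on low counts and were tested, and Cd36 had no read. With an adjusted p under 0.05 in the authors' DESeq2 test, Cebpd, Fabp4 and Fabp5 were higher and Pparg and Cebpa were lower after 24 h of dTAG-13, so 5 of 9 tested genes were called. Across all 16773 tested genes 19.9% were called, 7.45% as higher and 12.5% as lower. When fold changes were recentred on 16 housekeeping genes these shares were 21.0%, 11.4% and 9.56%. Among the 12620 genes with a mean count of at least 10, with p-values adjusted again over them, the shares were 26.4%, 9.45% and 16.9%. Cebpb, Plin2, Pnpla2 and Lpl were not called. The 9 tested genes had a median log2 fold change of -0.06, compared with -0.02 over all tested genes. In bulk RNA, fewer cells that express a gene and less RNA per cell cannot be told apart.

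**Figure D2:**
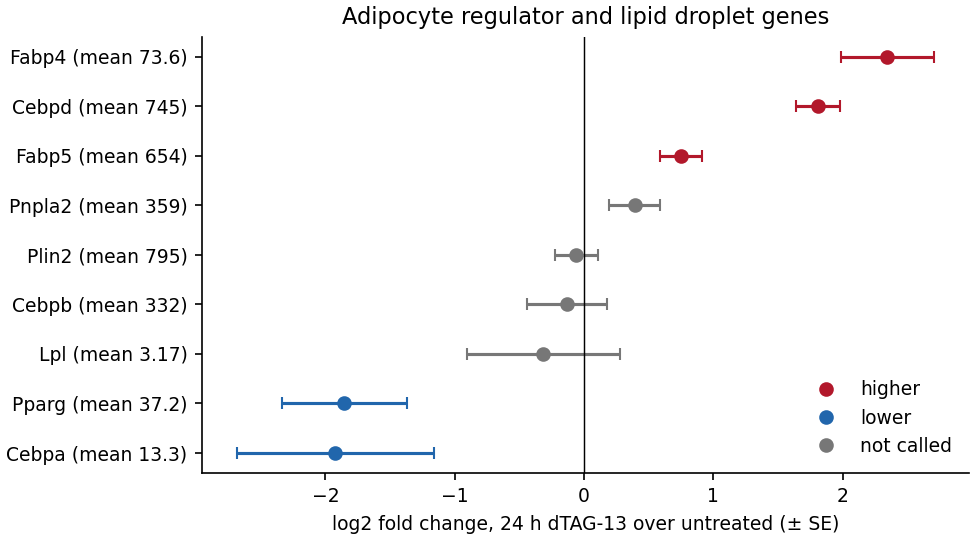
Log2 fold change of 24 h dTAG-13 over untreated (x axis) for the 9 tested genes, with lines of plus or minus 1 standard error, from the authors' shrunken estimates. Cebpd, Fabp4 and Fabp5 lie to the right of 0 and Pparg and Cebpa to the left of it, whereas the lines of Cebpb, Plin2 and Lpl cross 0, and Pnpla2 at 0.39 ± 0.20 was not called.

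**Figure D3:**
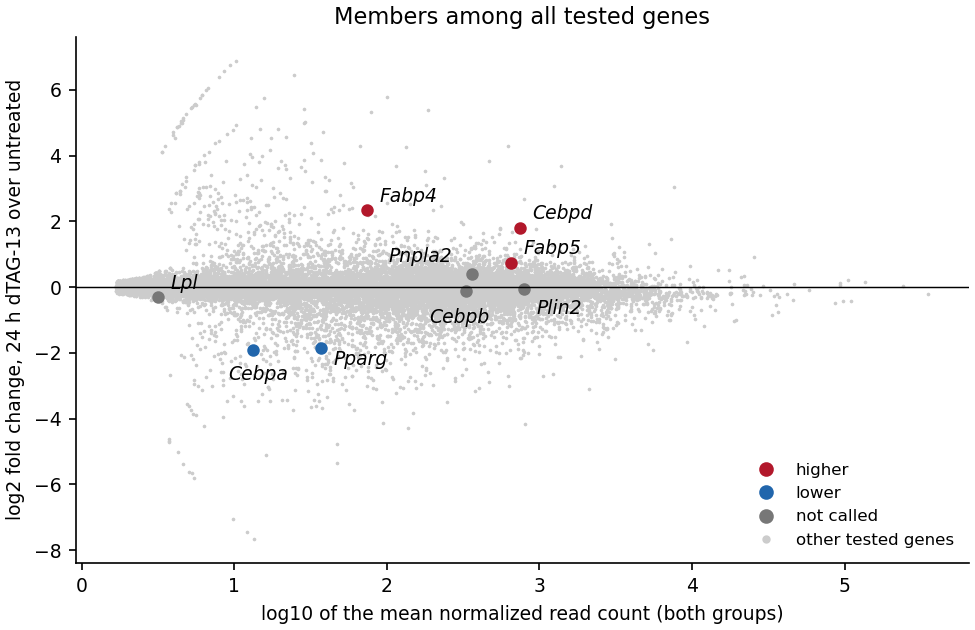
Log2 fold change (y axis) against the log10 of the mean normalized read count over both groups (x axis) for all 16773 tested genes (grey), with the 9 tested genes of this set named and coloured by call. The genes with the widest departures from 0, Fabp4, Cebpd, Cebpa and Pparg, range in mean count from 13.3 to 745.

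Of the early factors, Cebpd rose and Cebpb was not called. Cebpd (chr16:15887286-15891031, plus strand, GRCm38; ENSMUSG00000071637.5) had a mean normalized count of 745 over both groups. It was 3.51-fold higher with dTAG-13, a log2 fold change of 1.81 ± 0.17 (SE) with a 95% interval from 1.47 to 2.15 (adjusted p = 1.14e-24, authors' DESeq2 test). By p it ranked 57th of the tested genes, and 98.6% of them had a lower fold change. Cebpb (chr2:167688915-167690418, plus strand; ENSMUSG00000056501.3), its close relative, had a mean normalized count of 332 and a log2 fold change of -0.13 ± 0.31 (adjusted p = 0.767). Its interval reached from -0.74 to 0.48 and did not overlap that of Cebpd, and the difference between the genes was not tested. The standard error of Cebpb was larger than that of 99.6% of the 1411 tested genes within 1.25-fold of its level, whose median standard error was 0.19.

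Each of the early factors shares its locus with a gene on the opposite strand. Cebpb overlaps Tmem189, which had a mean count of 314 and a log2 fold change of -0.06 ± 0.18 (adjusted p of 0.851). Cebpd overlaps Spidr, which had a mean count of 56.7 and a log2 fold change of 0.36 ± 0.30 (adjusted p of 0.319). The counting is not stated to use strand, and reads from opposite strands cannot be told apart without it.

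Both factors that sustain the fat cell state were lower. Pparg (chr6:115360951-115490399, plus strand; ENSMUSG00000000440.12), the nuclear receptor at the centre of adipogenesis, had a mean normalized count of 37.2, which resolves into 184 reads over the 5 libraries. These libraries, here called A to E, held 30.8, 69.9, 40.1, 39.6 and 5.57 normalized counts of Pparg, from 17, 66, 39, 54 and 8 reads. Library E was far below the others, and library B was the highest. The labels and the table do not say which library belongs to which group, so no group mean was formed from these values and whether the groups overlap cannot be stated.

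The deposited comparison gave Pparg a log2 fold change of -1.85 ± 0.49, that is 3.61 times lower with dTAG-13, at an adjusted p = 0.000121 (authors' DESeq2 test). The 95% interval reached from -2.80 to -0.90. The standard error was larger than that of 94.1% of the 776 tested genes within 1.25-fold of its level. Gm44079, an antisense transcript that overlaps Pparg, had a mean count of 1.89 and was not called, with an adjusted p of 0.491.

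Cebpa (chr7:35119293-35121928, plus strand; ENSMUSG00000034957.10), the partner of Pparg in the mature fat cell, had few reads, with a mean normalized count of 13.3 from 68 reads. Its 5 libraries held 7.24, 15.9, 26.7, 13.2 and 3.48 normalized counts, from 4, 15, 26, 18 and 5 reads. Libraries A and E held the fewest reads, and C the most. The authors' DESeq2 comparison gave Cebpa a log2 fold change of -1.92 ± 0.76, 3.79 times lower with dTAG-13 (adjusted p = 0.00530). Its interval of -3.42 to -0.43 is wide, so the size of the fall is poorly known. Gm45091, which overlaps Cebpa on the other strand, had no reads. Cebpg, a C/EBP protein that lacks an activation domain and lies 62.7 kb away, had a mean count of 775 and a log2 fold change of -0.39 ± 0.18 that was not called (adjusted p of 0.0705).

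**Figure D4:**
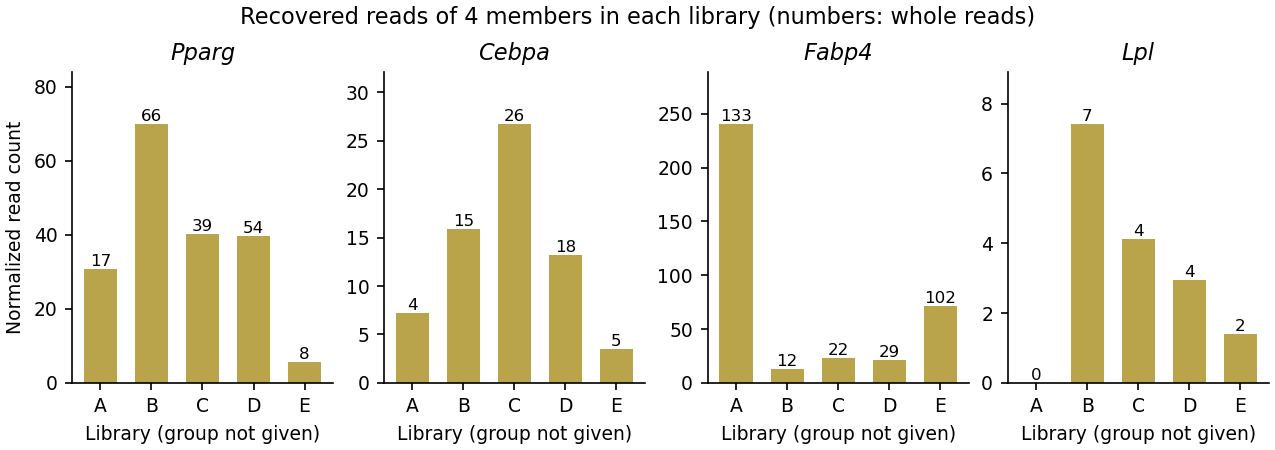
Normalized read counts of Pparg, Cebpa, Fabp4 and Lpl in each of the 5 libraries A to E, recovered from the deposited mean counts (y axis, normalized counts; the number over each bar is its whole reads). Fabp4 was highest in libraries A and E, and Pparg and Cebpa were lowest in E; the group of each library is not given.

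Both fatty acid carriers rose. Fabp4 (chr3:10204088-10208576, minus strand; ENSMUSG00000062515.3), known as aP2 and used as a marker of fat cells, also occurs in macrophages and endothelium. Its mean normalized count of 73.6 came from 298 reads. Libraries A to E held 240.6, 12.7, 22.6, 21.3 and 71.0 normalized counts of it, from 133, 12, 22, 29 and 102 reads. Libraries A and E were above the other 3, and A stood well above E. The deposited comparison gave a log2 fold change of 2.35 ± 0.36, 5.09-fold higher (adjusted p = 2.37e-10, authors' DESeq2 test), and a 95% interval from 1.64 to 3.05.

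Fabp5 (chr3:10012548-10016607, plus strand; ENSMUSG00000027533.10), the epidermal carrier, is made in many cell types. It had a mean normalized count of 654 and was 1.68-fold higher, at 0.75 ± 0.16 on the log2 scale (adjusted p = 1.61e-05, authors' DESeq2 test). Its standard error was smaller than that of most of the genes near its level, 14.1% of 1226 having a smaller one. The carriers lie on the same chromosome in a cluster of related genes, and few or no reads were assigned to its other genes. Fabp12 had a mean count of 0.919, Fabp9 of 0.147 and Pmp2 of 0. Fabp3, the heart carrier, which is not among these neighbours, had 2.54. The pseudogene Fabp5l2 had no reads.

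The uptake proteins had few reads or none. Lpl (chr8:68880491-68907448, plus strand; ENSMUSG00000015568.16) had 17 reads in all and a mean normalized count of 3.17. Its libraries held 0, 7.41, 4.11, 2.93 and 1.39 normalized counts, from 0, 7, 4, 4 and 2 reads. No library held more than 7 reads, so at this depth only a large change could have been detected. The log2 fold change of -0.31 ± 0.59 had an unadjusted p of 0.0406 (adjusted p = 0.143, authors' DESeq2 test) and an interval from -1.47 to 0.84. Cd36 (chr5:17781690-17888801, minus strand; ENSMUSG00000002944.15) had a mean count of 0, so not a single read was assigned to it in any library. The related scavenger receptor Scarb1, which takes up lipid from high density lipoprotein, was called lower, with a mean count of 365 and a log2 fold change of -0.60 ± 0.20 (adjusted p of 0.00892).

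The droplet proteins showed no called change. Plin2 (chr4:86648386-86670060, minus strand; ENSMUSG00000028494.12) had a mean normalized count of 795 and a log2 fold change of -0.06 ± 0.17 (adjusted p = 0.854, authors' DESeq2 test). The interval from -0.39 to 0.27 does not overlap that of Fabp5, from 0.43 to 1.06, and the difference between the genes was not tested. Plin3, a relative that also coats droplets, had a mean count of 517 and a log2 fold change of -0.36 ± 0.17 (adjusted p of 0.0996). The perilipins of fat and heart had mean counts of 1.62 for Plin1, 5.05 for Plin4 and 0.362 for Plin5. Pnpla2 (chr7:141455198-141460743, plus strand; ENSMUSG00000025509.15) had a mean normalized count of 359 and a log2 fold change of 0.39 ± 0.20. Its unadjusted p was 0.0268 (adjusted p = 0.106, authors' DESeq2 test), and its interval reached from 0.0047 to 0.78. When fold changes were recentred on the housekeeping genes, whose median was -0.14, Pnpla2 became called at 0.53 with an adjusted p of 0.0213, and no call of another of the 10 genes changed.

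Genes that act before or beside these regulators were counted in the same way. Of 23 factors known to promote fat cell formation, 18 were tested, 1 was higher and 3 were lower, with a median log2 fold change of -0.13. These 4 calls are 22.2% of the tested factors, near the 19.9% called over all genes and below the 26.4% among genes with a mean of at least 10. With fold changes recentred on housekeeping genes the balance turned, with 4 higher and 1 lower and a median of 0.01. Klf5, which acts with C/EBP proteins on the Pparg promoter, fell by 1.95 ± 0.23 on the log2 scale (adjusted p of 3.98e-17). Ppargc1b, a coactivator of nuclear receptors, had a log2 fold change of -1.27 ± 0.88 and Nr3c1, the glucocorticoid receptor, one of -0.48 ± 0.20, and both lost their call in that recentring, with adjusted p of 0.0524 and 0.147. Stat5a at 0.63, Fosl2 at 0.49 and Tcf7l1 at 0.44, which were not called before, became called as higher there, with adjusted p of 0.0111, 0.0140 and 0.0352. Ncoa1, a coactivator, was higher at 0.53 ± 0.19 (adjusted p of 0.0176).

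Of 26 factors known to hold fat cell formation back, 22 were tested, with a median of -0.06. Among them 5 were higher and 4 were lower, or 40.9% called. The share was 19.9% over all tested genes and 26.4% among those with a mean of at least 10. Sox9, which restrains the differentiation of mouse preadipocytes, was 8.22-fold higher with a log2 fold change of 3.04 ± 0.15 (adjusted p of 4.88e-85). Ccn5, a secreted matricellular protein, was higher by 1.10 ± 0.26 and Id3, an inhibitor of helix-loop-helix factors, by 0.61 ± 0.16. In the other direction, Klf2, a repressor of the Pparg promoter, had a log2 fold change of -1.11 ± 0.18, Ddit3 (CHOP), a C/EBP that blocks its partners, -1.08 ± 0.18 and Wnt10b, a Wnt ligand that inhibits adipogenesis, -0.87 ± 0.19. Members of this list were thus called in both directions.

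The H3K4 methyltransferase coregulators of adipogenesis, 6 genes of which 5 were tested, had a median of 0.05. Kmt2c alone was called, with a log2 fold change of 0.57 ± 0.19 (adjusted p of 0.00870). This is 20% of the tested genes, near the 19.9% called over all genes. A list of 7 nuclear receptors held the other PPARs, the RXRs with which Pparg pairs, and the LXR sterol receptors, which also pair with RXRs. Of its 5 tested genes 1 was called, likewise 20%. The called gene was the LXR gene Nr1h2, at 0.81 ± 0.18 (adjusted p of 2.66e-05), and no PPAR or RXR gene of the list was called. Ppard, the widely expressed PPAR, had a mean count of 176 and a log2 fold change of 0.19 ± 0.22 (adjusted p of 0.559), and Ppara had a mean count of 0.696. Of the 3 other C/EBP genes, Cebpe had no reads, Cebpg was not called and Ddit3 was lower.

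**Figure D5:**
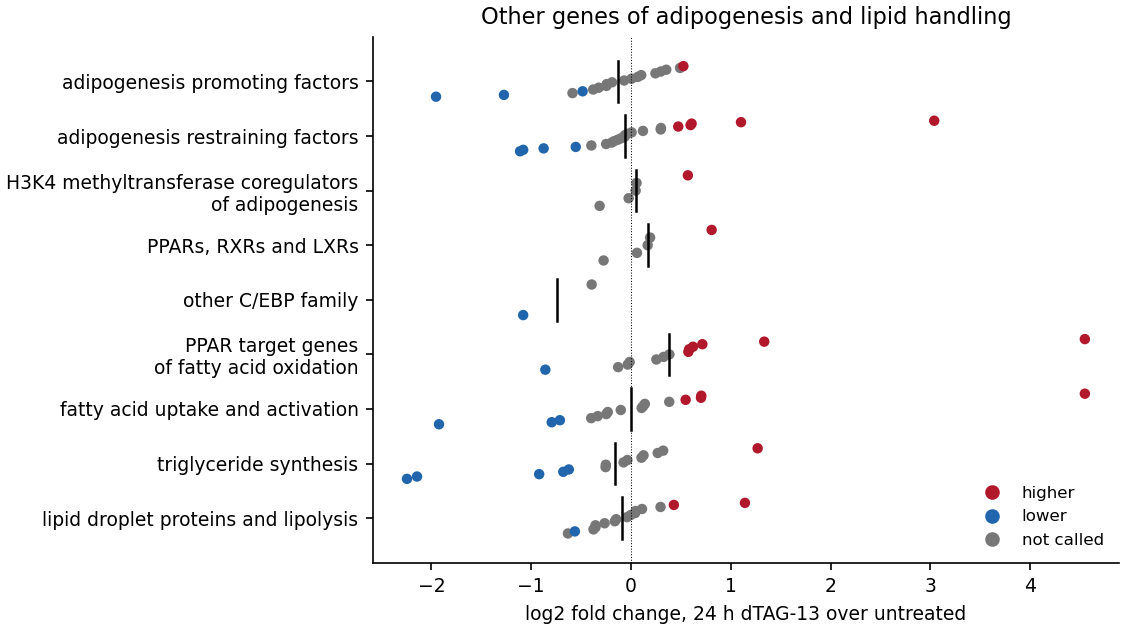
Log2 fold changes (x axis) of the tested genes in each of the 9 lists of related genes, 1 point per gene, with called genes coloured by direction and the list's median as a bar. The list of PPAR targets in fatty acid oxidation had a median of 0.39 with 6 higher genes and 1 lower. The list of triglyceride synthesis had a median of -0.16 with 1 higher and 5 lower. Over all tested genes, 7.45% were called higher and 12.5% lower, and among those with a mean of at least 10, 9.45% and 16.9%.

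Known PPAR targets in fatty acid oxidation were followed beside Pparg itself. Of 14 listed genes 13 were tested, with a median log2 fold change of 0.39. Among them 6 were higher and 1 was lower, or 53.8% called, against 19.9% over all tested genes. The higher share was 46.2% and the lower 7.69%, against 7.45% and 12.5% over all tested genes. Among genes with a mean of at least 10, 26.4% were called, 9.45% as higher and 16.9% as lower. Recentred on housekeeping genes, 8 were higher and 1 lower, or 69.2% called, against 21.0% over all tested genes. Acadm, the dehydrogenase of medium chains, was higher by 1.34 ± 0.18 (adjusted p of 2.00e-12), Hadha, a subunit of the mitochondrial trifunctional protein, by 0.72 ± 0.17, and the carnitine transferases Cpt2 and Cpt1a by 0.62 ± 0.19 and 0.58 ± 0.20. Angptl4, a secreted inhibitor of Lpl rather than an oxidation enzyme, had a log2 fold change of 4.55 ± 1.15 (adjusted p of 0.000258) from 46 reads. It is counted both here and in the list of fatty acid uptake and activation. Acaa2, a thiolase, was lower at -0.86 ± 0.22.

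Of 21 genes of fatty acid uptake and activation, 16 were tested, with a median of 0.00. Among them 4 were higher and 3 were lower, or 43.8% called. The share was 19.9% over all tested genes and 26.4% among those with a mean of at least 10. When recentred on housekeeping genes, 5 were higher and 2 lower. The lipoprotein receptor Vldlr, which works with Lpl, was 3.79 times lower, with a log2 fold change of -1.92 ± 0.19 (adjusted p of 5.38e-24). Of the called Acsl genes for acyl-CoA synthetases, Acsl4 was higher by 0.71 ± 0.17, Acsl3 by 0.70 ± 0.18 and Acsl1 by 0.55 ± 0.23. Acsl5 alone was lower, at -0.79 ± 0.17. Slc27a3, an acyl-CoA synthetase of the fatty acid transport family, was lower at -0.71 ± 0.30 and lost its call when recentred on housekeeping genes (adjusted p of 0.0667).

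Of 15 genes of triglyceride synthesis, 14 were tested, with a median of -0.16. Among them 1 was higher and 5 were lower, or 42.9% called. The share was 19.9% over all tested genes and 26.4% among those with a mean of at least 10. Dgat2, which attaches the last fatty acid, had a log2 fold change of -2.14 ± 0.45 (adjusted p of 3.24e-06) and Gpat3, which attaches the first, -2.24 ± 0.68 (adjusted p of 0.000671). Among the lipins, which remove a phosphate in between, Lpin1 was higher by 1.27 ± 0.19, whereas Lpin3 and Lpin2 were lower at -0.92 ± 0.30 and -0.68 ± 0.22. Agpat5 was lower at -0.62 ± 0.18.

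Of 23 further droplet and lipolysis genes, 16 were tested, 2 were higher and 1 was lower, or 18.8% called, with a median of -0.09. Lipe, the hormone-sensitive lipase that acts after ATGL, was 2.21-fold higher, with a log2 fold change of 1.14 ± 0.39 (adjusted p of 0.00316). Hsd17b11, a droplet enzyme, was higher by 0.43 ± 0.17 and Cav1, caveolin, was lower at -0.56 ± 0.17. Over the 9 lists together, 37 of 109 tested genes were called (33.9%), 18.3% as higher and 15.6% as lower. The shares over all tested genes were 19.9%, 7.45% and 12.5%. Among genes with a mean of at least 10 they were 26.4%, 9.45% and 16.9%. Recentred on housekeeping genes, 40 were called, 23.9% as higher and 12.8% as lower, against 11.4% and 9.56% over all genes. Which genes the lists hold was decided with earlier results known, so the shares are a description.

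The identity of the cells was checked with 4 marker lists. Of 12 fibroblast markers none was at 0 and 9 had a mean count above 10, but Dcn had 5.68, Lum 1.73 and Fap 0.362. The summed mean count of the 12 was 279730, with 109792 from Col1a2 and 86116 from Col1a1. Of the 11 tested, 6 were called (54.5%), against 19.9% over all tested genes and 26.4% among those with a mean of at least 10. Within them Col1a1, Col1a2, S100a4 and Thy1 were lower and Col3a1 and Fn1 higher, while Vim, Pdgfra and Pdgfrb were not called, and Col1a1 and Col1a2 lost their call when recentred on housekeeping genes. Of 14 adipocyte markers 6 (Cidec, Cidea, Lep, Cfd, Pck1 and Ucp1) had no reads, none had a mean count above 10, and their summed mean count was 19.9. The only one called was Adrb3, the adrenergic receptor of fat, which had a mean count of 5.25 and was lower with an adjusted p of 0.00120 and a log2 fold change of -5.66 ± 2.69, a value that rests on 27 reads in 3 libraries.

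Fabp4 is shared with macrophages and endothelium, and markers of both were counted beside it. Of 10 macrophage markers Adgre1, Fcgr1 and Spi1 had no reads, 3 had a mean count above 10 (Cd14 with 39.4, Cd68 with 25.4 and Csf1r with 10.1), and their summed mean count was 86.4. The 5 tested macrophage markers had a median log2 fold change of 0.26. Cd14 was lower, at -1.30 ± 0.44 (adjusted p of 0.00269), and the other 4 were not called, with log2 fold changes of 0.59 ± 0.72 for Csf1r, 0.27 ± 0.36 for Cd68, 0.26 ± 0.53 for Mrc1 and 0.16 ± 0.42 for Lyz2. Of 8 endothelial markers Cdh5 and Cldn5 had no reads, and their summed mean count was 24.4. The 3 tested endothelial markers had a median log2 fold change of -0.05. Tek, the angiopoietin receptor, had a mean count of 17.5 and was higher, at 1.93 ± 0.65 (adjusted p of 0.00211). Pecam1 at -0.05 ± 0.42 and Kdr at -0.09 ± 0.43 were not called, with mean counts of 2.72 and 2.54. The part of such cells in the rise of Fabp4 was not tested.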

How the data were processed

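RNA of iMEF cells was measured in untreated cells and after 24 h of dTAG-13, with groups taken from the sample titles, since the labels' treatment protocol lists only times below 24 h. By the study's methods, the authors ran Trim Galore on the reads, aligned to mm10 with STAR, counted reads per gene with featureCounts, scaled them to ERCC spike-ins and compared groups with DESeq2. A stranded kit for total RNA stands in the labels and, in the study, a kit for 3′ ends of mRNA, so strand and captured region are uncertain, and the counts, which are not per length, do not rank genes by level; sums over marker lists describe reads only. Versions are not given in the sources used here.

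The deposited signal is the authors' mean normalized read count over all libraries. The deposited log2 fold change and its standard error are the authors' shrunken estimates, and the deposited p-value and adjusted p-value come from the authors' test, adjusted by Benjamini-Hochberg. No values per library are in the table, so no test was fitted to counts here, and depth per library is unknown. Single-gene statistics are the authors' own, except the intervals and the recentred fold changes and adjusted p-values of the alternatives. For recentring, each deposited p was turned into a normal score and moved by the shift over the deposited standard error. The resulting p-values were adjusted again by Benjamini-Hochberg. Under the filters, deposited p-values were adjusted again over the genes kept. The authors' shorter lists of changed genes were not used. There were 0 sample columns left unused.

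A gene was called at an adjusted p under 0.05. Intervals are the shrunken estimate plus or minus 1.96 standard errors and need not match the authors' p-value. Lpl, for instance, had an interval that spans 0 and an unadjusted p of 0.0406 in the authors' DESeq2 test. The members and the gene lists were chosen with earlier results of these data known. Named genes were the 10 members, up to 6 called genes of each list by smallest p, and markers at 0 or above a mean of 10. Relatives and overlapping genes of the members, and Acsl1, were named after their values were seen. Whole reads were recovered, a step chosen after seeing the data, by writing each mean as a whole-number combination of 5 values, each the contribution of 1 read in 1 library. All 8923 genes with a mean up to 3 were solved in exactly 1 way within a tolerance of 2e-12. Recovery was applied to named genes with a mean under 100, where the solution was also single. Read recovery and adjustment were tested on simulated data. In that simulation p followed from the fold change and its standard error. The deposited p does not follow from the shrunken values in this way, so the simulation cannot vouch for the recentred p-values. Gene positions came from GENCODE M21 (GRCm38), in which all 10 members had the gene version of the table, and promoters from RefSeq (GRCm38.p6). Tools were Python 3.11.15, numpy 2.4.6, pandas 2.3.3, scipy 1.17.1 and matplotlib 3.10.9. Alternatives were other thresholds, filters on mean count, a minimum fold change and recentring on housekeeping genes or on genes with a mean of at least 100.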

Additional observations from a re-analysis of the deposited data

How the results depend on the processing

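The count of called genes among the 10 was 5 in 6 of the 7 alternatives and 6 (4 higher, 2 lower) when fold changes were recentred on the median of 16 housekeeping genes, -0.14. In that recentring the uncalled log2 fold changes of Cebpb and Plin2 changed sign, to 0.00703 (adjusted p of 0.946) and 0.0784 (adjusted p of 0.814), and Pnpla2 became called at 0.53 (adjusted p of 0.0213). Of 62 values of the members under alternatives, 59 kept their direction and side of the threshold. Only the recentrings move the fold change, so the direction was fixed in advance under the other alternatives. All values that changed came from the recentring on housekeeping genes. Lpl has no value where genes with a mean under 10 were left out. The 37 called genes of the lists ranged from 27 to 47 under the alternatives. Over all tested genes, the housekeeping recentring gave 1920 higher and 1604 lower calls against 1250 and 2093 without it. Leaving out single libraries was not run, since the table holds no values per library with a group. No paired analysis was possible because the table has 1 value per gene for both groups together. Genes with few reads, such as Lpl with 17 and Cebpa with 68, carry the widest intervals.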

Other observations

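For the called list genes with a mean count under 100, the values of the 5 unlabelled libraries A to E were recovered as well. Lipe held 117.6, 15.9, 26.7, 22.0 and 45.2 normalized counts, so that A and E were above the other 3, as for Fabp4. Angptl4 had 29, 0, 1, 1 and 15 reads, and Tek 30, 3, 4, 10 and 27. In the other direction, Adrb3 had 0, 8, 13, 6 and 0 reads, Gpat3 4, 24, 26, 23 and 6, and Dgat2 10, 49, 60, 50 and 17. Of the members, Pparg with 17, 66, 39, 54 and 8 reads, Cebpa with 4, 15, 26, 18 and 5 and Lpl with 0, 7, 4, 4 and 2 also had their fewest reads in A and E.

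In normalized counts, A and E were also the lowest libraries of Pparg, and A with 30.8 lay nearer to D with 39.6 than to E with 5.57. Ppargc1b had 16.3, 15.9, 36.0, 11.7 and 0.696 normalized counts, with E as the lowest and A above D, and Slc27a3 had 77.8, 67.8, 80.2, 71.8 and 43.9. Lpin3 held 106.7, 114.4, 129.6, 72.6 and 45.9 normalized counts, and A lay among the higher libraries. The labels put none of these libraries in a group, so these are values of single libraries and no groups were formed or tested from them. The scaling factors implied by the values of 1 read were 0.553, 0.944, 0.972, 1.36 and 1.44 for A to E, so that 1 read counts for more in A than in any other library.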
